A study of Homo sapiens with 12 samples.

Results

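The genes examined here encode the proteins of the mitochondrial ribosome, and were taken as all genes whose symbol is MRPL or MRPS followed by a number and, in some, a letter. There were 78 of them among the 17508 genes of the count file, 49 named MRPL (large subunit) and 29 named MRPS (small subunit). They were measured by RNA-seq of TYK-nu, an established human ovarian cancer cell line, treated with 15 μM cisplatin (a platinum drug that binds DNA) or with its vehicle DMSO, and collected at 24 or 72 h. Each of the 4 groups (DMSO at 24 h, cisplatin at 24 h, DMSO at 72 h and cisplatin at 72 h) held 3 libraries, and all groups were the same line. The study states that its cell lines were not authenticated. The study's methods describe cells grown in triplicate, without saying whether on separate days or from separate passages, so p-values measure the spread between such cultures of 1 line. For most genes, fragments falling in exons and fragments falling in introns had been counted separately, so that both can be followed side by side. The study's methods state that mRNA was isolated by its poly(A) tail before sequencing. Intron counts therefore come from such RNA and are not a direct level of all unspliced RNA.

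The mitochondrial ribosome translates the few proteins encoded by mitochondrial DNA, all of them subunits of the respiratory chain or of ATP synthase. Its ribosomal RNAs come from the mitochondrial genome, but all of its proteins are encoded in the nucleus, made in the cytosol and imported. Some descend from bacterial ribosomal proteins, and others are found only in mitochondria. By structure, 30 of the genes encode large subunit proteins with a bacterial counterpart, 21 encode large subunit proteins particular to mitochondria, 16 encode small subunit proteins with a bacterial counterpart and 10 encode small subunit proteins particular to mitochondria. MRPS30 and MRPS18A were counted with the large subunit, where their products sit in spite of their names. MRPS36 was placed in none of these groups, since its product is known as a component of the 2-oxoglutarate dehydrogenase complex. No gene of the mitochondrial genome itself was matched in the count file, so the ribosomal RNAs and the products of this ribosome are not analysed here.

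Exon and intron counts together summed to between 18526830 and 68753262 per library, and the deepest library was in the group treated with cisplatin for 72 h. The 78 genes held between 105681 and 358390 exon counts and between 5354 and 17288 intron counts per library. Of 6 markers of serous ovarian epithelium with exon counts, PAX8 had at most 2 counts and KRT7 at most 8 in any library, whereas EPCAM had between 2 and 83, WT1 between 41 and 170, KRT8 between 207 and 2210 and KRT18 between 3049 and 9642, so that 2 of the 6 had 10 or fewer counts in every library. Of 7 markers of other cell types with an exon entry, 4 had 10 or fewer counts in every library, among them PTPRC (leukocytes) with 0, but the endothelial genes PECAM1 and CDH5 reached 34067 to 90727 and 17210 to 48042 counts. The marker lists are thus mixed, with PAX8 and KRT7 near 0 and endothelial genes high beside detected WT1, KRT8 and KRT18, and the cells are called TYK-nu here as labelled. The summed level of these 7 markers lay between 3354.87 and 3478.26 CPM (counts scaled to a common library size) in the 24 h libraries and between 2033.17 and 2307.56 CPM in the 72 h libraries. PECAM1 fell between the times by 0.82 (log2 scale) in DMSO, so these markers moved with time alongside every change with time given here, and their part in those changes was not tested.

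The genes were well expressed as a group. Per kilobase of exon, the median of the 73 genes that could be tested was 47.1 CPM per kb in DMSO at 24 h, against 10.3 CPM per kb over all genes tested, and 66 of the 73 lay above that second value. MRPL20, a protein that bacteria need early in the assembly of the large subunit, had the highest level at 238 ± 2.51 CPM per kb (SD, n = 3). It was followed by MRPS15 at 201 ± 10.5, MRPL51 at 197 ± 14.3 and MRPL37 at 194 ± 8.88 CPM per kb, whose libraries overlapped with one another. MRPS18C had the lowest level at 2.83 ± 0.18 CPM per kb, below MRPS33 at 3.84 ± 0.28, MRPS11 at 3.98 ± 0.27 and MRPS18A at 6.36 ± 1.24. Only 10 of the 72 neighbouring pairs in this order had libraries that did not overlap, so most of the order within the list is not resolved. Exon lengths were those of the canonical transcript, 4210 bases for MRPS33 and 3392 for MRPS11, and whether these cells use that transcript was not tested. The MRPS18 family has 3 related genes, of which MRPS18A serves the large subunit and MRPS18B and MRPS18C the small subunit. MRPS18B had far more exon counts, with 104 ± 6.11 CPM in DMSO at 24 h. MRPS18A had 7.40 ± 1.45 CPM and MRPS18C 4.39 ± 0.28 CPM. All 3 overlap a protein-coding gene on the opposite strand. How far such overlaps or the counting rules lowered the counts of single genes in this list was not tested.

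Together the 78 genes took 0.595% ± 0.0111 of exon counts in DMSO at 24 h, 0.603% ± 0.00874 in cisplatin at 24 h, 0.583% ± 0.0221 in DMSO at 72 h and 0.550% ± 0.010 in cisplatin at 72 h (SD, n = 3 each). The libraries with cisplatin at 72 h had shares of 0.541%, 0.561% and 0.548%, of which the first and the third were the lowest of the series and the second overlapped with DMSO replicate 3 at 72 h (0.560%). In a culture, a lower share can come from fewer cells that express the genes or from less of their RNA per cell. It can also come from more RNA of other genes, and these counts cannot tell these apart.

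**Figure D1:**
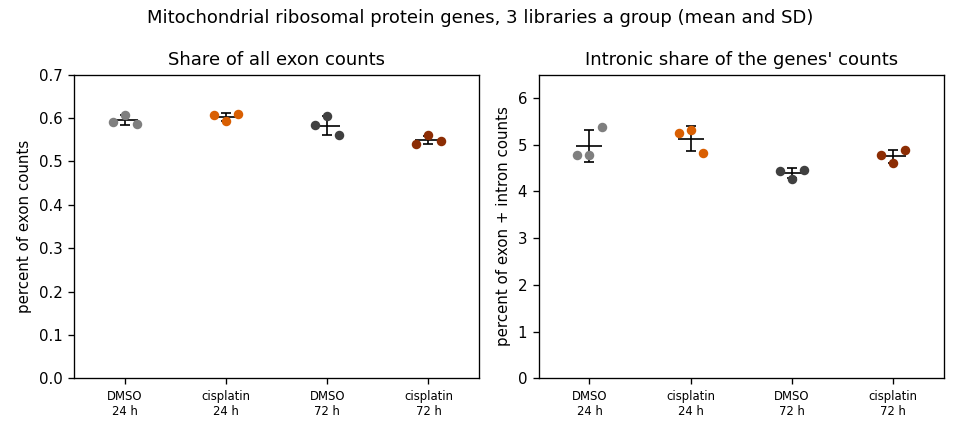
The left panel plots the share of all exon counts taken by the mitochondrial ribosomal protein genes and the right panel the intronic share of these genes' own counts, in percent, with 1 point per library and bars for the mean and SD of 3 libraries. The exon shares of cisplatin at 72 h (0.541% to 0.561%) lie low and overlap with 1 DMSO library of 72 h (0.560%), and the intronic shares are lowest in DMSO at 72 h (4.27% to 4.46%).

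Time in culture changed many of these genes in both directions. Between 24 and 72 h in DMSO, 24 of 73 genes fell and 14 rose, where 32.5% of all genes tested fell and 32.6% rose (edgeR quasi-likelihood test, adjusted p under 0.05 by the Benjamini-Hochberg method over 10444 genes). Between the same times in cisplatin, 37 fell and 6 rose, where 31.5% of all genes fell and 32% rose. The median log2 change of the 73 genes was -0.01 in DMSO and -0.15 in cisplatin, beside 0.01 and 0.02 over all genes. The median in DMSO took either sign when single libraries were left out, from -0.04 to 0.01, whereas that in cisplatin stayed between -0.18 and -0.13. No gene that passed the test in both treatments had opposite directions in them. There were 24 genes that fell in both, 5 that rose in both, 13 that fell in cisplatin and did not pass in DMSO, 9 that rose in DMSO and did not pass in cisplatin, 1 that rose in cisplatin alone and 21 that passed in neither. Passing in one treatment and not in the other is not a difference between them, and the test of that difference, given further on, called none of these genes.

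**Figure D2:**
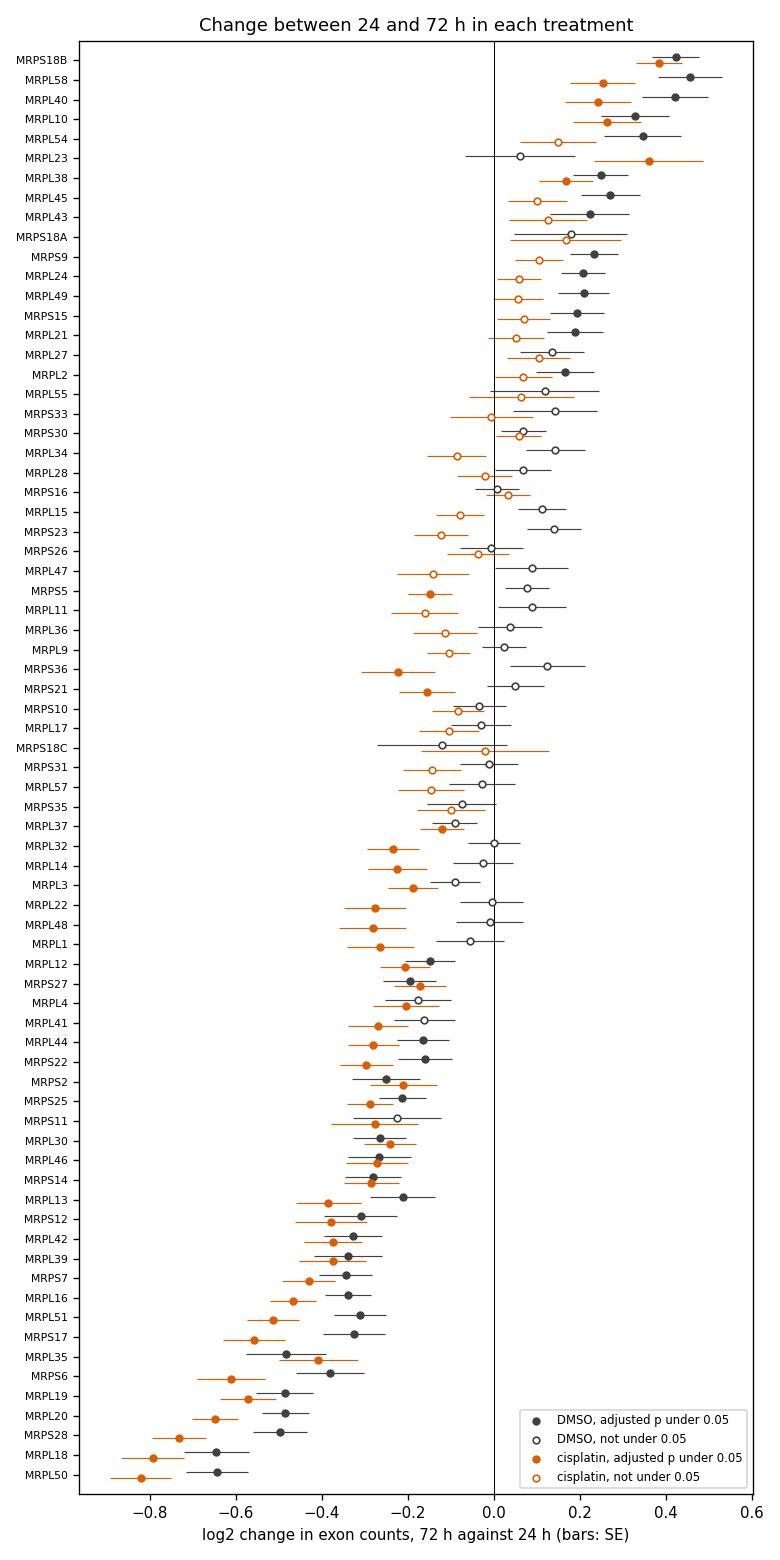
Each row is 1 of 73 genes, ordered by the mean of its 2 changes; points give the log2 change in exon counts from 24 to 72 h in DMSO (dark) and in cisplatin (orange), bars give the SE, and filled points have an adjusted p under 0.05. MRPL50 and MRPL18 lie lowest in both treatments, and the cisplatin points tend to lie to the left of the DMSO points.

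MRPL50 and MRPL18 had the largest falls. MRPL50, a large subunit protein particular to mitochondria, had 49.2, 51.2 and 47.7 CPM in DMSO at 24 h against 33.3, 31.2 and 30.6 at 72 h, and 56.0, 46.4 and 53.8 CPM in cisplatin at 24 h against 30.2, 29.5 and 28.3 at 72 h. The libraries of the 2 times did not overlap in either treatment. Its log2 change was -0.64 (SE 0.07, adjusted p = 4.05e-08, edgeR) in DMSO and -0.82 (SE 0.07, adjusted p = 6.31e-10, edgeR) in cisplatin, a level 1.56 and 1.77 times lower at 72 h. MRPL18 belongs to the central protuberance, the part of the large subunit that in bacteria holds the 5S ribosomal RNA. It had 45.7, 45.8 and 45.7 CPM in DMSO at 24 h against 28.9, 31.5 and 27.5 at 72 h, and 51.9, 44.9 and 44 CPM in cisplatin at 24 h against 25.4, 28.5 and 27.3 at 72 h. It too separated the times in both treatments, with log2 changes of -0.65 (SE 0.08, adjusted p = 6.64e-08, edgeR) and -0.79 (SE 0.07, adjusted p = 2.01e-09, edgeR).

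MRPS28 and MRPL20 fell nearly as far. MRPS28, the small subunit protein that corresponds to a part of bacterial S1, had 58.7, 61.8 and 59.3 CPM in DMSO at 24 h against 39.9, 45.9 and 41.6 at 72 h, and 62.6, 63.5 and 64.5 CPM in cisplatin at 24 h against 38.2, 37.1 and 39.7 at 72 h. It fell by 0.50 (SE 0.06) in DMSO and by 0.73 (SE 0.06) in cisplatin on the log2 scale. MRPL20, which had the highest level per kilobase in DMSO at 24 h, had 167, 167 and 164 CPM in DMSO at 24 h against 115, 128 and 115 at 72 h. In cisplatin it went from 176, 171 and 175 to 107, 112 and 115 CPM, a log2 change of -0.65 (SE 0.05, adjusted p = 2.26e-10, edgeR). Neither gene had overlapping libraries at the 2 times. MRPL19 fell by 0.49 (SE 0.07) in DMSO, and it and MRPS6, MRPL35, MRPS17, MRPL51 and MRPL16 were among the 24 genes that fell in both treatments.

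Of the genes that rose, MRPS18B had the most even change. It had 105, 109 and 97.4 CPM in DMSO at 24 h against 141, 142 and 136 at 72 h, and 101, 103 and 108 CPM in cisplatin at 24 h against 133, 138 and 136 at 72 h. The groups did not overlap, and the log2 change was 0.42 (SE 0.05, adjusted p = 2.87e-07, edgeR) in DMSO and 0.38 (SE 0.05, adjusted p = 1.27e-06, edgeR) in cisplatin. MRPL58, a peptidyl-tRNA hydrolase built into the large subunit that frees stalled chains, had 36.8, 38.2 and 32.8 CPM in DMSO at 24 h against 49.0, 53.7 and 45.9 at 72 h. It had the largest rise in DMSO at 0.46 (SE 0.08), and its rise in cisplatin was 0.25 (SE 0.08), from 36.4, 33.3 and 35.1 to 39.4, 44.5 and 40.5 CPM. The central protuberance genes MRPL40 and MRPL38 and the stalk gene MRPL10, which anchors the proteins that recruit translation factors, also rose in both treatments. MRPL40 rose by 0.42 (SE 0.08) in DMSO. MRPL54 rose by 0.35 (SE 0.09) in DMSO, and in cisplatin its change of 0.15 (SE 0.09) did not pass. MRPL23 rose by 0.36 (SE 0.13, adjusted p = 0.0159, edgeR) in cisplatin, but 1 library of 44.4 CPM against 32.0 and 28.8 in the same group carried the rise, and the call was lost without cisplatin replicate 1 at 72 h, without cisplatin replicate 3 at 24 h and with DESeq2. The call of MRPL10 in cisplatin (0.26, SE 0.08) was lost without cisplatin replicate 2 at 72 h.

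**Figure D3:**
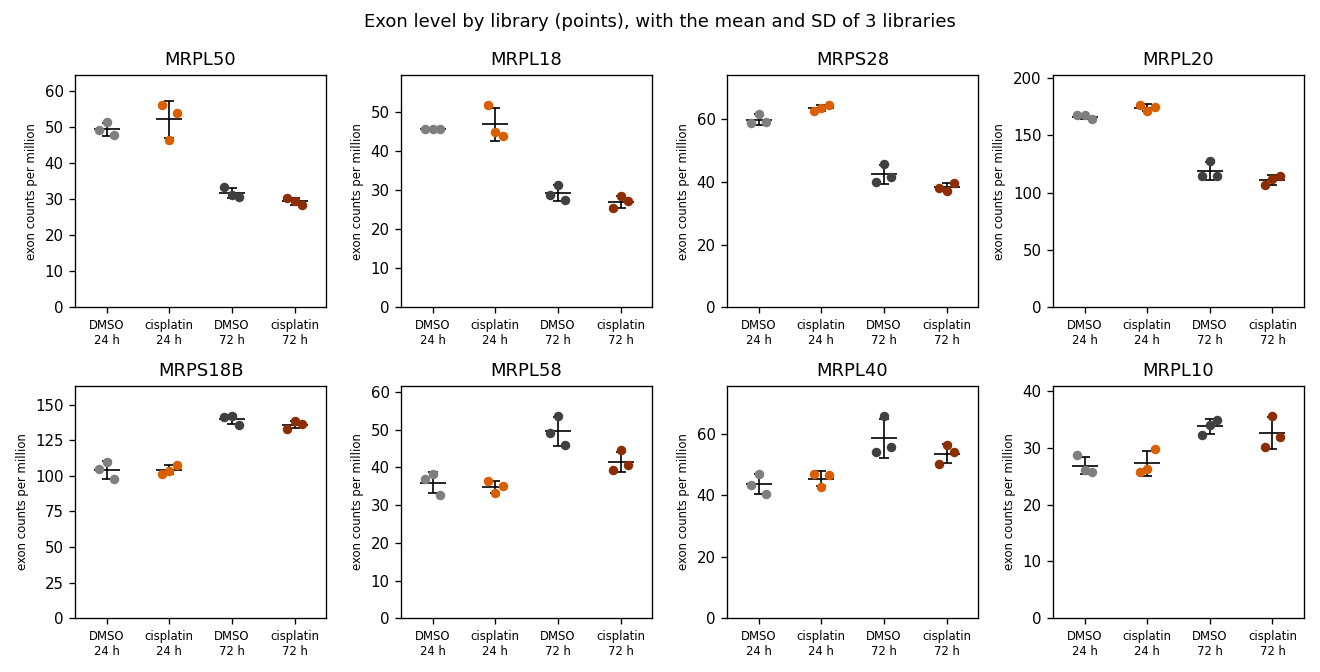
The panels plot exon CPM for 8 genes, with 1 point per library, 4 groups along the x axis, and the mean and SD of 3 libraries. MRPL50, MRPL18, MRPS28 and MRPL20 (top) are lower in all libraries of 72 h than in any library of 24 h, and MRPS18B (bottom left) is higher at 72 h in both treatments.

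Both subunits held genes that fell and genes that rose, and their counts are to be read against the shares over all genes, 32.5% falling and 32.6% rising in DMSO and 31.5% and 32% in cisplatin. Of the genes named MRPL, 14 fell and 11 rose among 46 tested in DMSO, and 23 fell and 5 rose in cisplatin. Of those named MRPS, 10 fell and 3 rose among 27 in DMSO, and 14 fell and 1 rose in cisplatin. The small subunit proteins with a bacterial counterpart had the lowest medians, at -0.22 in DMSO (7 fell and 2 rose among 15) and -0.21 in cisplatin (10 fell and 0 rose). The central protuberance held both the largest fall (MRPL18) and the largest rise (MRPL58) in DMSO. Among its 7 genes, 2 fell and 3 rose in DMSO, and 3 of each passed in cisplatin. Of 4 tested genes of the stalk, 2 rose and 1 fell in DMSO and 1 of each passed in cisplatin. At the exit of the tunnel through which new chains leave, 2 of 8 genes fell and 2 rose in DMSO, and 3 fell and 1 rose in cisplatin. These groups are small and their difference from one another was not tested.

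The sequences upstream of 6 genes with large changes are shown. Members that fell and members that rose can then be compared by the motifs that housekeeping promoters carry. RefSeq promoters of GRCh38.p14 (250 bases before to 50 after the start) were found for 69 of the 78 genes. None was found for MRPS28, so it is not shown. The motifs were chosen after the expression results had been seen, and each was searched on both strands. The ETS motif CCGGAAG, bound by GABP among others, was in 29 of 69 promoters (42.0%), against 20.7% of 8504 promoters of genes tested for exon counts and 10.7% of all 27305 promoters. The YY1 motif AAGATGGC was in 20 (29%), against 5.91% and 3.03%. The NRF1 motif GCATGCGC was in 6 (8.70%), against 5.80% of promoters of tested genes. The SP1 motif GGGCGG was in 60.9% against 72.1% of promoters of tested genes, CCAAT in 29% against 37.0%, the E-box CACGTG in 8.70% against 10.5%, and TATAAA in 2.90% against 5.13%. Among 21 genes that fell in both treatments, 8 had the YY1 motif and 6 the ETS motif, and among 4 that rose in both, 2 and 3 did. The 150 bases before the start follow, with ETS, NRF1, SP1 or CCAAT motifs on either strand in capitals. MRPL50 lies at chr9:101398619-101398768 (minus strand), MRPL18 at chr6:159789662-159789811 (plus) and MRPL20 at chr1:1407294-1407443 (minus), and these 3 genes fell in both treatments. MRPS18B lies at chr6:30617690-30617839 (plus), MRPL58 at chr17:75012520-75012669 (plus) and MRPL40 at chr22:19432395-19432544 (plus), and these 3 rose in both.
MRPL50: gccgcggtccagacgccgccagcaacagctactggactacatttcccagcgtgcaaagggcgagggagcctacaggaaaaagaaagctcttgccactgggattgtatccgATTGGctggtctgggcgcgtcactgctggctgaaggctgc
MRPL18: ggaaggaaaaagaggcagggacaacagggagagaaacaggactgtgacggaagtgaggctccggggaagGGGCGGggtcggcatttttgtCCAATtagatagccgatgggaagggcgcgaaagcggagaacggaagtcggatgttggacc
MRPL20: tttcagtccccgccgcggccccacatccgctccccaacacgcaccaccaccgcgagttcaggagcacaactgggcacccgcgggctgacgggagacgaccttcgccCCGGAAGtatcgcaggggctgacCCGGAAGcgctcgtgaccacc
MRPS18B: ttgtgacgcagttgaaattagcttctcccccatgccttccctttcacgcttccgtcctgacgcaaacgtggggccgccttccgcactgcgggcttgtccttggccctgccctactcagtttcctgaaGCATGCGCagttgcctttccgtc
MRPL58: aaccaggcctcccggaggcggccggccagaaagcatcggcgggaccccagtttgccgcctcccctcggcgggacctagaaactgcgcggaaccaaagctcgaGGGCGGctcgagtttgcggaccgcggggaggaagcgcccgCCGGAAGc
MRPL40: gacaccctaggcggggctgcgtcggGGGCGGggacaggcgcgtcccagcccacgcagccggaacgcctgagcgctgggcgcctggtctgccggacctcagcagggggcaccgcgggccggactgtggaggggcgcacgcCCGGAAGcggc
MRPL20 carried the ETS motif at 2 places, MRPL58 and MRPL40 carried 1 each close to the start, and MRPS18B was the only one of the 6 with the NRF1 motif. MRPL50 and MRPL18 had a CCAAT box in this window, on the minus strand of the sequence for MRPL50, and no ETS motif.

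The YY1 motif read in the direction of the gene in 16 of the 20 promoters (80%) and began after the transcription start in 15 (75%), near the 75.7% and 67.4% of the 503 promoters of tested genes that hold it. In 12 of the 20, the ATG inside the motif is an annotated start codon. The next lines give 30 bases around the match, in capitals, for 3 genes that fell with time (MRPL50 at chr9:101398577-101398606, minus; MRPL20 at chr1:1407260-1407289, minus; MRPS7 at chr17:75261887-75261916, plus) and 2 that rose (MRPS18B at chr6:30617852-30617881, plus; MRPL38 at chr17:75904860-75904889, minus).
MRPL50: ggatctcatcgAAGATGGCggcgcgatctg
MRPL20: ccgacccgggcAAGATGGCagcggcgctgc
MRPS7: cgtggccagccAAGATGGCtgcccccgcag
MRPS18B: gggcgtacgtcAAGATGGCggcgtctgtat
MRPL38: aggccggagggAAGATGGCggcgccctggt
The match began 24 bases from the start in both MRPL50 and MRPS18B, which moved in opposite directions, 16 in MRPL20, 20 in MRPS7 and 7 in MRPL38.

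No change in exon counts with cisplatin for 24 h was detected in these genes at this depth with edgeR or DESeq2. None of the 73 was called, as among all genes tested (0%; edgeR), with DESeq2 also calling none of them, and none had an unadjusted p under 0.05, against 260 of 10444 genes. The log2 changes lay between -0.16 and 0.14 with a median of 0.01. In 6 genes all cisplatin libraries were higher than all DMSO libraries (3.33% of all genes) and in 1 gene they were lower (3.09%). MRPL24, an exit tunnel protein, had the smallest p. It had 166, 175 and 159 CPM in DMSO and 177, 181 and 175 CPM in cisplatin, a log2 change of 0.09 (SE 0.05, adjusted p = 0.9997, edgeR).

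Cisplatin for 72 h gave no gene that passed the test, and most changes in exon counts were small and below 0. None of the 73 genes was called, where 3 of 10444 genes were (0.0287%; edgeR, adjusted p under 0.05). However, 66 of the 73 had a change below 0 (49.8% of all genes tested), and the median was -0.10 against 0.00 over all genes. At an unadjusted p under 0.05 there were 22 genes, all lower (5.94% of all genes were lower at that p). In 18 genes all cisplatin libraries lay below all DMSO libraries (9.3% of all genes), and in 0 genes above. Taken library by library against the DMSO mean, the median over the 73 genes was -0.16, -0.06 and -0.10 in the 3 cisplatin libraries, all below 0. DMSO replicates at 72 h weighed on these counts: 9 genes were lower at an unadjusted p under 0.05 without replicate 2, and 27 without replicate 3. The marker lists also differed in this comparison, with no overlap: the 7 markers of other cell types summed to 2033 to 2126 CPM in DMSO and 2165 to 2308 CPM in cisplatin, and the 6 ovarian markers to 168 to 173 and 174 to 189 CPM. PECAM1 (0.07, SE 0.04) and CDH5 (0.15, SE 0.05) did not pass, and the part of these markers in the result was not tested. DESeq2 called MRPS5 and MRPL32, and leaving out DMSO replicate 3 at 72 h called these and MRPL22.

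**Figure D4:**
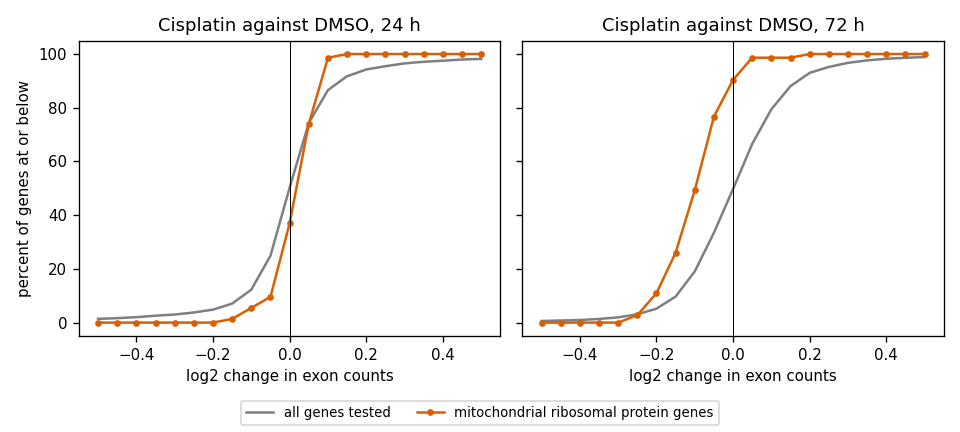
The curves give the percentage of genes at or below each log2 change in exon counts, cisplatin against DMSO, for 73 mitochondrial ribosomal protein genes (orange) and 10444 genes tested (grey), at 24 h (left) and 72 h (right). At 72 h the orange curve has reached 90.4% at a change of 0 where the grey curve has reached 49.8%.

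The sizes were small for single genes. MRPS5, a small subunit protein with a bacterial counterpart, had 215, 221 and 202 CPM in DMSO at 72 h and 192, 186 and 180 CPM in cisplatin. The groups did not overlap and the change was -0.19 (SE 0.05, adjusted p = 0.151, edgeR), a level 1.14 times lower. MRPL48, of the central protuberance, had 29.8, 30.3 and 30.3 CPM in DMSO and 24.3, 24.8 and 25.9 CPM in cisplatin, a change of -0.27 (SE 0.08, adjusted p = 0.175, edgeR). MRPL32, whose precursor is cut by a protease of the mitochondrial inner membrane before it joins the ribosome, had 120, 117 and 104 CPM in DMSO and 96.9, 104 and 92.9 CPM in cisplatin. Its change was -0.21 (SE 0.06, adjusted p = 0.181, edgeR), with no overlap, although DMSO replicate 3 lay just above cisplatin replicate 2. All 19 tested large subunit genes particular to mitochondria were below 0 (median -0.09), as were 26 of 29 large subunit genes with a bacterial counterpart (median -0.10), 13 of 15 small subunit genes with a bacterial counterpart (median -0.11) and 7 of 9 small subunit genes particular to mitochondria (median -0.07). The 7 genes above 0 included MRPL23 at 0.17 (SE 0.12), the gene with 1 high cisplatin library.

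The change with cisplatin was compared between the times in the same fit, as the difference between the effect at 72 h and the effect at 24 h. No gene of the file was called (0%; edgeR), the members included, and DESeq2 called none of the members. Of the 73 genes, 66 had a difference below 0 and 16 of them an unadjusted p under 0.05 (4.62% of all genes were lower at that p), with a median of -0.12 against 0.00 over all genes. The count of 16 fell to 7 without cisplatin replicate 3 at 24 h, without DMSO replicate 2 at 72 h or without cisplatin replicate 1 at 72 h, and to 10 without DMSO replicate 1 at 24 h. MRPS5 had the smallest p, with a difference of -0.23 (SE 0.07, adjusted p = 0.454, edgeR), followed by MRPS23 at -0.26 (SE 0.09) and MRPS36 at -0.35 (SE 0.12).

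Intron counts, which come from RNA selected by its poly(A) tail, were much fewer than exon counts. CPM of intron counts are relative to the intron counts of the library, so they are not on the scale of exon CPM. Intronic counts made up 4.98% ± 0.34 of the counts of the 78 genes in DMSO at 24 h, 5.13% ± 0.27 in cisplatin at 24 h, 4.39% ± 0.10 in DMSO at 72 h and 4.75% ± 0.14 in cisplatin at 72 h, while over all genes the share was between 6.49% and 7.03% in the 4 groups. Single genes differed widely. The share in DMSO at 24 h was 67.6% ± 2.57 for MRPL35, 56.7% ± 3.15 for MRPL43 and 45.7% ± 3.35 for MRPL55, but 0.0979% ± 0.116 for MRPL50, 0.206% ± 0.105 for MRPL41 and 0.205% ± 0.148 for MRPL51 (SD, n = 3). Protein-coding genes overlap 37 of the 78 genes in the annotation, 13 on the same strand and 26 on the other, and the strand option of the counting is not given in the sources used here. MRPL43 shares 16368 bases with SEMA4G on the opposite strand, and MRPS6 shares 32683 bases with SLC5A3 on its own strand, so their intron counts can hold fragments of the neighbour.

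With time, 8 of 74 genes fell and 6 rose in intron counts in DMSO (16.2% and 17.2% of all genes tested), and 13 fell and 3 rose in cisplatin (15.4% and 16.4%; edgeR). These splits depended on the scaling: with total counts as library size, 18 fell and 2 rose in DMSO and 16 fell and 1 rose in cisplatin, while the median of all genes moved to -0.15 and -0.12. Scaled by the sizes of the exon libraries, 11 fell and 2 rose in DMSO and 13 fell and 1 rose in cisplatin. The median of all genes was then -0.08 and -0.09. The shares of all genes called under these scalings are not given here, so these counts have no background beside them. Without cisplatin replicate 2 at 24 h, 10 genes were called in cisplatin. MRPL35 had the smallest adjusted p among the falls, from 791, 914 and 882 CPM of intron counts in DMSO at 24 h to 506, 493 and 481 at 72 h, and from 890, 732 and 930 to 497, 443 and 471 CPM in cisplatin. The times did not overlap, and the log2 changes were -0.81 (SE 0.09, adjusted p = 1.81e-10, edgeR) and -0.85 (SE 0.09, adjusted p = 3.11e-11, edgeR). Exon counts of this gene fell as well, by 0.48 (SE 0.09) and 0.41 (SE 0.09). MRPS6 fell in intron counts by 0.94 (SE 0.11) and 0.66 (SE 0.11). MRPS7 fell by 0.89 (SE 0.20) and 0.71 (SE 0.19), the second call being lost without cisplatin replicate 2 at 24 h. MRPS11 fell by 0.93 (SE 0.18) in DMSO and MRPL3 by 0.72 (SE 0.17) in cisplatin. Most rises were less stable. MRPL27 (0.49, SE 0.17) and MRPS21 (0.47, SE 0.18) in DMSO, and MRPS31 (0.48, SE 0.18) and MRPL32 (0.32, SE 0.12) in cisplatin, were each lost with total counts as library size, when scaled by exon libraries and without some single libraries. No change in intron counts with cisplatin was called in any member at 24 h (0.0208% of all genes called; edgeR) or at 72 h (0.0416%). The difference between the times was called in none (0.0416%). At an unadjusted p under 0.05 there were 2 of 74 members at 24 h, 2 at 72 h and 8 for the difference, where 5.00%, 6.46% and 5.71% of all genes were at that p. DESeq2 also called none in these 3 comparisons.

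MRPS28 moved in opposite directions in exons and introns. Its intron counts were 124, 176 and 162 CPM in DMSO at 24 h against 210, 234 and 204 at 72 h, and 179, 142 and 146 CPM in cisplatin at 24 h against 222, 194 and 208 at 72 h. All libraries of 72 h were higher than those of 24 h in the same treatment, with log2 changes of 0.49 (SE 0.12, adjusted p = 0.000661, edgeR) and 0.42 (SE 0.11, adjusted p = 0.00322, edgeR), while the exon counts fell. The intronic share of the gene went from 15.6% ± 2.05 to 25.9% ± 0.41 in DMSO and from 15.7% ± 2.08 to 28.3% ± 0.87 in cisplatin. MRPS16, a small subunit protein with a bacterial counterpart, rose in intron counts by 1.07 (SE 0.21, adjusted p = 4.21e-05, edgeR) in DMSO, from 19.6, 19.4 and 27.6 to 50.5, 48.6 and 39.8 CPM, with an exon change of 0.01 (SE 0.05). In cisplatin its intron change was 0.40 (SE 0.19) and did not pass. MRPS28 has 110705 intronic bases, and the annotation gives another protein-coding gene model on the same strand over 111430 bases of it. MRPS16 overlaps DNAJC9-AS1, a long non-coding RNA gene on the opposite strand, over its whole length of 3851 bases. The intron counts of MRPS16 can therefore hold fragments of that gene.

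**Figure D5:**
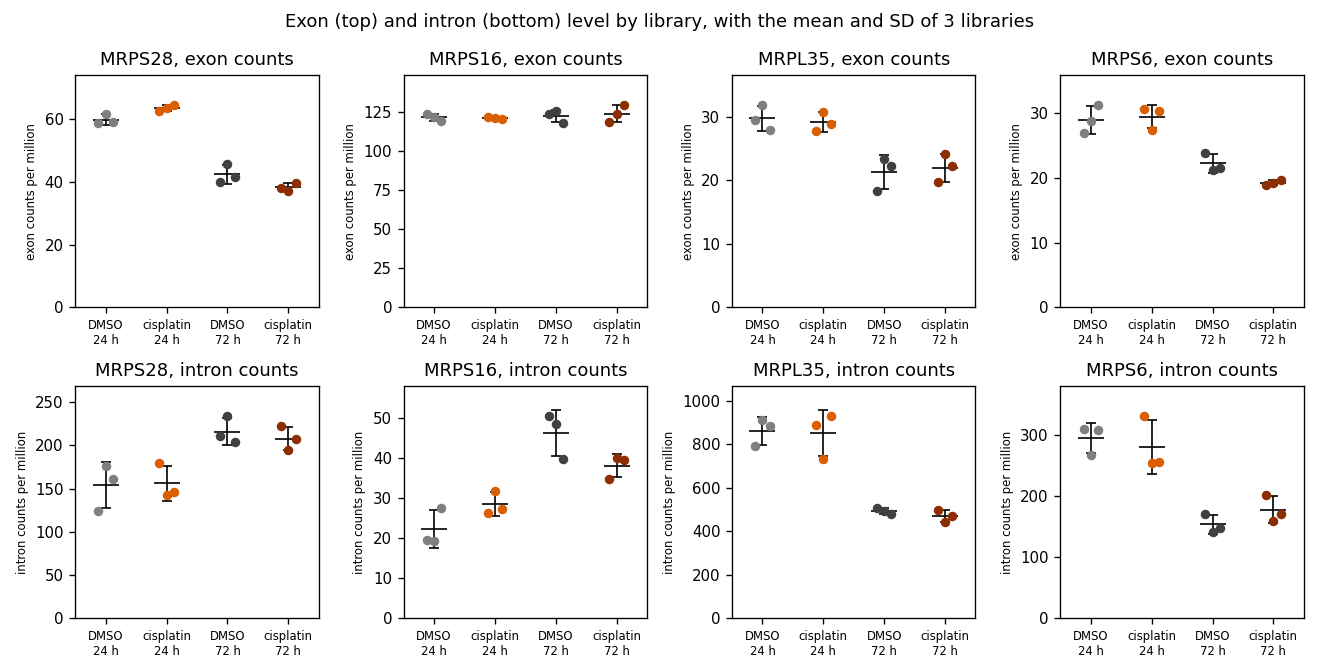
The panels plot CPM of exons (top) and introns (bottom) for MRPS28, MRPS16, MRPL35 and MRPS6, with 1 point per library and the mean and SD of 3 libraries. From 24 to 72 h MRPS28 is lower in exons and higher in introns, while MRPL35 and MRPS6 are lower in both.

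The ratio of exon to intron counts within a library was tested in a model with a term for each library. With time in DMSO it was lower in 4 of 71 genes (3.37% of all genes tested) and higher in 8 (8.09%), and in cisplatin lower in 3 (3.56%) and higher in 7 (8.36%; edgeR). The median of the members was 0.10 and 0.09, beside 0.10 and 0.11 over all genes, but that in DMSO was 0.04 without DMSO replicate 3 at 24 h and 0.20 without replicate 2 at 24 h, and that in cisplatin was -0.0046 without cisplatin replicate 2 at 24 h and 0.15 without replicate 3 at 72 h. The ratio of MRPS28 was 6.53, 5.13 and 4.82 in DMSO at 24 h against 2.81, 2.85 and 2.93 at 72 h, and 4.58, 5.51 and 6.24 in cisplatin at 24 h against 2.42, 2.63 and 2.56 at 72 h. The times did not overlap, and the log2 changes were -0.92 (SE 0.14, adjusted p = 7.77e-05, edgeR) and -1.08 (SE 0.14, adjusted p = 7.88e-06, edgeR). MRPL20, with a ratio of 11.9, 12.3 and 13.1 in DMSO at 24 h and 8.45, 8.74 and 9.55 at 72 h, was lower by -0.48 (SE 0.12) in DMSO and -0.41 (SE 0.12) in cisplatin, but the call was lost without DMSO replicate 1 at 72 h and, in cisplatin, without any 1 of 4 libraries. MRPS16 was lower by -0.99 (SE 0.19) in DMSO, and MRPL32 by -0.49 (SE 0.13) in cisplatin, a call lost without cisplatin replicate 2 at 24 h or replicate 3 at 72 h. MRPS2 was lower by -0.55 (SE 0.18) in DMSO, a call lost without any 1 of the 6 libraries and with DESeq2. Higher ratios outnumbered lower ones. The ratio of MRPS6 went from 1.20, 1.57 and 1.33 to 2.07, 2.18 and 2.09 in DMSO, a log2 change of 0.64 (SE 0.16, adjusted p = 0.00768, edgeR), and these libraries did not overlap. In DMSO, MRPS11 (0.78, SE 0.22), MRPS7 (0.61, SE 0.19) and MRPL3 (0.58, SE 0.19) were also higher. The call of MRPS7 was lost without any 1 of the 6 libraries and with DESeq2, that of MRPL3 without 4 of them in turn and with DESeq2, and that of MRPS11 without 4 of them in turn. In cisplatin, MRPL37 went from 52.4, 52.0 and 70.8 to 85.6, 87.6 and 82.9, a log2 change of 0.60 (SE 0.15, adjusted p = 0.00758, edgeR), lost without cisplatin replicate 2 at 24 h. MRPL3 (0.61, SE 0.17), MRPL35 (0.50, SE 0.14) and MRPS15 (0.47, SE 0.14) were higher too. The call of MRPS15 was lost with DESeq2, in a fit of the 6 libraries compared and without 4 single libraries in turn, that of MRPL3 with DESeq2 and without 3 single libraries in turn, and that of MRPL35 without 4 single libraries in turn. MRPS30 had higher ratios at 1.48 (SE 0.29) and 1.10 (SE 0.24), from only 7 to 35 intron counts per library, and is named after its values were seen. Leaving out single libraries brought the 12 calls in DMSO down to 6 (without replicate 1 at 72 h) or 7 (without replicate 2 at 72 h), and the 10 calls in cisplatin down to 6 (without replicate 1 or 2 at 24 h or replicate 3 at 72 h) or 5 (without replicate 2 at 72 h). With DESeq2, 5 genes were higher and 3 lower in DMSO, and 4 were higher and 3 lower in cisplatin. The shares of all genes called with DESeq2 are not given here.

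No change in the ratio with cisplatin was called in any member at 24 h (0% of all genes called; edgeR) or at 72 h (0.0213%). No difference between the times was called either (0%). DESeq2 called none either. At an unadjusted p under 0.05 there were 9 of 71 members at 24 h (6.33% of all genes), 7 of them lower (5.41% of all genes were lower). At 72 h there were 7 members (6.24% of all genes), all lower, as were 499 of the 585 genes of the file at that p, and for the difference there were 9 members (4.55% of all genes). The smallest p at 72 h was that of MRPS6, with ratios of 2.07, 2.18 and 2.09 in DMSO and 1.31, 1.66 and 1.54 in cisplatin, a log2 change of -0.50 (SE 0.15, adjusted p = 0.517, edgeR). These libraries did not overlap. MRPL34 had -0.83 (SE 0.29) and MRPL12, the stalk protein that binds translation factors, -0.76 (SE 0.27).

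The logistic regression of exon against intron fragments that the study used treats every fragment as independent. It called 11 members at 24 h of cisplatin, all with a lower exon share (10.7% of all genes were called lower), and 7 at 72 h, all lower (9.7%). It called 11 lower and 17 higher between the times in DMSO (11.1% and 22.5%) and 9 lower and 17 higher in cisplatin (11.6% and 29%). With a dispersion estimated for each gene from its 6 libraries, the 4 counts became 0, 0, 1 and 2. The share of all genes called that way is not given here, so this drop cannot be read as particular to these genes. At 24 h, MRPS10 had the largest change at -1.01 on the log2 scale, but its groups overlapped, and the count of 11 was 0 without cisplatin replicate 2 at 24 h and 3 without DMSO replicate 1 or 2 at 24 h. At 72 h, MRPL34 (-0.81), MRPL12 (-0.75), MRPS11 (-0.52), MRPS6 (-0.49), MRPL42 (-0.39), MRPL32 (-0.21) and MRPS28 (-0.18) were called, and 4 remained as a count without cisplatin replicate 3 at 72 h.

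Other genes of the pathway were followed in the same fit, where 32.5% of all genes fell and 32.6% rose with time in DMSO, and 31.5% fell and 32% rose in cisplatin. The mitochondrial ribosome has further subunits without an MRP symbol, of which 5 were measured. PTCD3 fell in both treatments, by 0.40 (SE 0.05) and 0.36 (SE 0.05), DAP3 rose by 0.17 (SE 0.05) in DMSO, and AURKAIP1, CHCHD1 and GADD45GIP1 fell in cisplatin, CHCHD1 by 0.45 (SE 0.08). At 72 h of cisplatin all 5 were below 0 with a median of -0.14, and none was called. Of 24 genes for assembly of this ribosome, 8 rose and 6 fell with time in DMSO and 6 rose and 9 fell in cisplatin, with a median of -0.03 for cisplatin at 72 h. Of 11 translation factors and partners, 2 rose and 7 fell in DMSO and 1 rose and 5 fell in cisplatin. Of 8 genes that copy or transcribe mitochondrial DNA, 5 fell in DMSO and 7 in cisplatin, and TFAM, which packages this DNA, fell by 0.63 (SE 0.12) and 0.58 (SE 0.11). Among 8 tested regulators of genes for mitochondrial proteins, NRF1 fell by 0.48 (SE 0.08) and 0.51 (SE 0.08), MYC rose by 0.50 (SE 0.06) and 0.62 (SE 0.06), and YY1 rose by 0.17 (SE 0.05) in cisplatin with 0.09 (SE 0.05) in DMSO, which did not pass. GABPA, which binds the ETS motif, had 0.11 (SE 0.08) and 0.12 (SE 0.08) and did not pass.

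A few genes of the list could not be followed in exons. MRPL33 and MRPS34 had 0 exon counts in every library, although they had 34 to 166 and 58 to 303 intron counts. MRPL52 had at most 2 exon counts but 310 to 1177 intron counts, MRPS24 had at most 1 exon count and no intron entry, and MRPL53 had no exon entry and 13 to 70 intron counts. MRPL33 shares 98147 bases with BABAM2 on the same strand, MRPL53 shares 702 bases with CCDC142, and MRPS24 is covered by a read-through gene over 3336 bases. The part of these overlaps in the low exon counts was not tested, and no level is given for these 5 genes. MRPL50, MRPL19 and MRPL41 were left out of the intron tests, as their intron counts were too few.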

How the data were processed

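RNA-seq counts of 12 libraries of poly(A)-selected RNA were used. According to the study's methods the authors trimmed reads with Trim Galore 0.6.0, checked them with FastQC 0.11.8 and aligned them to GRCh38 with HISAT2 2.1.0. They counted fragments with HTSeq and Ensembl release 98, once for exons (intersection-strict mode) and once for introns (union mode). The deposited values are raw whole-number counts per gene, with exon and intron entries apart, neither normalized nor pooled. The strand option and the HTSeq version are not given in the sources used here.

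Genes, the lists and the tests were chosen with earlier results of these data known. Exon counts (10444 genes) and intron counts (9618 genes) were each fitted over all 12 libraries with edgeR 4.0.16 in R 4.3.3 (filterByExpr, TMM, quasi-likelihood F-test), with Benjamini-Hochberg adjustment over all genes and a threshold of 0.05. CPM values use the TMM library sizes. The ratio of exon to intron counts (9380 genes, each reaching 10 counts on both sides in 3 or more libraries) was fitted with a term for each library. The study's logistic regression was computed where all 6 libraries of a contrast had 1 count or more on both sides. Each test was tested on simulated data. DESeq2 1.42.0 and other scalings, filters and left-out libraries were tried as alternatives. Positions and exon lengths are from GENCODE release 44 (GRCh38), and promoters from RefSeq (GRCh38.p14).

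Genes were named by rule: per comparison and measure, up to 4 with the largest rise and 4 with the largest fall among those called with a mean of at least 50 counts, or the 3 with the smallest p where none was called, and the extremes of level and of intronic share, the MRPS18 family and genes that were not tested. MRPL10, MRPL38, MRPS17, MRPL51, MRPL16, MRPL22 and MRPS30, where they fall outside this rule, were named after their values were seen. Libraries of a group differed by more than counting noise (chi-square per gene 3.85 to 22.1, where 1 is noise alone), so none was a copy of another. The precision of counts given here covers these libraries only.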

Additional observations from a re-analysis of the deposited data

How the results depend on the processing

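Of the summary results, 471 values under alternatives were counted as the same, 42 as moved and 5 as reversed. Values counted as the same could still differ somewhat, and some medians among them changed sign. Examples are the exon median with time in DMSO and the ratio median with time in cisplatin, when single libraries were left out. For single named genes, called or not, 815 values stayed on the same side of the threshold, 76 lost a call and 6 gained one. The cause of these changes was not tested.

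Calls of members for cisplatin at 72 h in exons went from 0 to 3 with no filter on low counts and to 2 with DESeq2, and lay between 0 and 3 with 1 library left out. The logistic regression with a dispersion per gene called 0 and 0 members for cisplatin at 24 and 72 h, and 1 and 2 between the times in DMSO and cisplatin. The share of all genes it called is not given here. With 1 library left out, the logistic regression without that dispersion called 0 to 11 and 4 to 9 for cisplatin at 24 and 72 h. Also with 1 library left out, members lower at an unadjusted p under 0.05 numbered 9 to 27 for cisplatin at 72 h and 7 to 23 for the difference between the times. In the same fits, calls with time in cisplatin were 10 to 14 for introns, against 16 with all libraries. Those for the ratio were 6 to 9 in DMSO, against 12, and 5 to 9 in cisplatin, against 10.

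Median log2 changes of introns moved most with scaling. Scaled by exon library sizes they were 0.0963 for cisplatin at 24 h, 0.002318 at 72 h (a reversal) and -0.1492 with time in cisplatin. With total counts they were -0.02416 for cisplatin at 72 h, -0.108 with time in DMSO (a reversal) and -0.1722 with time in cisplatin. These scalings moved all genes alike: the median of members minus that of all genes stayed between -0.0784 and -0.0755 for cisplatin at 72 h and between 0.0414 and 0.0435 with time in DMSO. With 1 library left out they ranged from -0.0498 to 0.0536 for cisplatin at 24 h, -0.06661 to 0.0002343 with time in DMSO and -0.1502 to -0.08152 with time in cisplatin, so the first 2 reversed in some fits (-0.0498, -0.06661 and -0.0388). Ratio medians in these fits ranged from -0.1822 to -0.04375, -0.1604 to -0.07239 and 0.04351 to 0.2037 for cisplatin at 24 h, for cisplatin at 72 h and for the change with time in DMSO. The ratio median with time in cisplatin, given above, crossed 0 in these fits. Logistic medians in these fits ranged from -0.1577 to -0.05421, 0.07588 to 0.1914 and 0.02377 to 0.1968 for cisplatin at 72 h and for the changes with time under DMSO and under cisplatin.

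Of 12 same-number pairs of libraries, 4 had a correlation of deviations over 0.1 (range -0.25 to 0.15). These 4 were replicates 1 and 2 between the times in both treatments. With few replicates and no pairs of unlike number beside them, this cannot decide whether the replicate numbers pair the libraries. With the replicate block, calls of members were 0 for cisplatin at 72 h, 38 and 42 for time in exons, 13 and 16 in introns, and 11 and 8 for the ratio, and the logistic medians were -0.1186 for cisplatin at 72 h and 0.1723 for time in DMSO. Among named genes, the block changed the calls of the ratio of MRPS2 with time in DMSO (edgeR adjusted p = 0.054) and of MRPS15 with time in cisplatin (edgeR adjusted p = 0.0515), and no other. Intron counts of 5354 to 17288 per library over all members limit the intron and ratio results.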
